A study of Mus musculus with 16 samples.

Results

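The genes described here encode enzymes that begin or extend the globo, isoglobo and neolacto series of glycosphingolipids, or make the related alpha-galactose cap. There were 5 of them (B3gnt5, A3galt2, A4galt, B3galnt1 and Ggta1) among 37583 genes listed, and 27196 genes had at least 1 count. They were chosen by name in the deposited gene table because B3gnt5 and A3galt2 were the listed glycosylation genes most biased to cerebellum in wild-type mice. The cerebellum-over-cortex difference in wild-type mice is therefore given as a description, with no test. Tests were made on the same difference in A391T mice and on the genotypes.

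RNA was sequenced from cortex and cerebellum of 8 C57BL/6J mice, with 1 library per region and mouse and 4 libraries in each of 4 groups. The A391T mice carry a change in Slc39a8, a metal ion transporter, which the labels write as A391T (A393T), and the other mice are wild-type. Mice are numbered 1 to 4 within each genotype, in the order of their numbers in the labels. The study describes the wild-type mice used for RNA sequencing as male, its mice as 12 weeks old at harvest, and its regions as frontal cortex and cerebellum taken by blunt dissection of unperfused brains. Neither an age nor a sex for the A391T mice is given in the sources used here, and no treatment is named for any group. The variant is a change of protein sequence, so the counts per gene do not check the genotype labels.

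Lactosylceramide, a glucose and a galactose on ceramide, is the branch point of these lipids. The sugar added to it next sets the series, and in adult brain most of it is known to go to gangliosides, which start with a sialic acid. B3gnt5 adds N-acetylglucosamine and so starts the lacto and neolacto series, the carriers of the HNK-1 and Lewis x epitopes in developing brain and cerebellum. A4galt adds galactose to make globotriaosylceramide, the receptor of Shiga toxin, and B3galnt1 extends this to globoside. A3galt2 adds galactose in another linkage to make isoglobotriaosylceramide. Ggta1 makes the same kind of linkage, mainly on glycoproteins, where it forms the alpha-Gal epitope.

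Counts on genes ran from 20813432 to 30497206 per library, with a median of 24488842. For 8 of the 16 libraries the name in the count files differs from that in the RPKM table. In both regions the table gives the libraries of A391T mice 3 and 4 to wild-type mice 1 and 2, and the reverse. Names were taken from the count files, and only the libraries of A391T mice 1 and 2 and of wild-type mice 3 and 4 are named alike in both. The cerebellum library of A391T mouse 1 stood apart from its group, with a root mean square deviation from the group mean of 0.393 in log2 CPM over genes against 0.173 to 0.290 in the other 15 libraries. It was the lowest cerebellum library for A3galt2, A4galt, B3galnt1 and Ggta1, so values that rest on it are also given without it.

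The markers of each region were where the labels put them. All 8 granule cell genes were higher in cerebellum than in cortex of A391T mice, and all 5 measured cortical neuron genes were lower. The summed level of the granule cell genes was 2628 to 3592 TPM in the 8 cerebellum libraries and 47.0 to 68.7 TPM in the 8 cortex libraries. Of the Purkinje cell genes 5 of 6 were higher and 1 lower, and higher too were 4 of 5 astrocyte genes and 2 of 4 meninges genes, and no blood or oligodendrocyte gene was called. Choroid plexus genes were not evenly present. Their summed level was 2392 to 8096 TPM in 6 cerebellum libraries, but 52.3 TPM in that of A391T mouse 4, 54.0 TPM in that of wild-type mouse 3, and at most 50.7 TPM in cortex. None of the 6 choroid plexus genes was at 0 in every library of a group. These are bulk tissue samples, so fewer cells of a type and less RNA per cell cannot be told apart.

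The promoters of the genes that differed most between the regions are shown because B3gnt5 and A3galt2 were both far higher in cerebellum while Ggta1 was lower. Each sequence is the 250 bases before the transcription start, from RefSeq on GRCm38.p6, written 5′ to 3′ on the gene's strand. Capitals mark the E-box letters CANNTG, which basic helix-loop-helix factors can bind. The B3gnt5 window is chr16:19759984-19760233 on the plus strand, that of A3galt2 is chr4:128759008-128759257 on the plus strand, and that of Ggta1 is chr2:35461450-35461699 on the minus strand.
B3gnt5: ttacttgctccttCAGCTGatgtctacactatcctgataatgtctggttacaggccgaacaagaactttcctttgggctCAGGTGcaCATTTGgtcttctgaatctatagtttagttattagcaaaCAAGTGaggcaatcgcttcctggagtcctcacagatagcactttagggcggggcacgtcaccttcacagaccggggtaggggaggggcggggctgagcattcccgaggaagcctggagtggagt
A3galt2: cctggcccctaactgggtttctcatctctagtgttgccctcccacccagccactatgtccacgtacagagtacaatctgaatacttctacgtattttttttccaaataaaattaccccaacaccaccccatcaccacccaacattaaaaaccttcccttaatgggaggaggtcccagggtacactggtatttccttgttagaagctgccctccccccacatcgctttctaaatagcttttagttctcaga
Ggta1: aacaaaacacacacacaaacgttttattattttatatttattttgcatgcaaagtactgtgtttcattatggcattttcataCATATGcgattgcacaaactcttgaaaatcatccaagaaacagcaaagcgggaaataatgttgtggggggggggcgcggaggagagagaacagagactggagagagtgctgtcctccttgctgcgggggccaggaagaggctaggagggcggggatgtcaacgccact

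The promoters of the 2 genes most biased to cerebellum had little in common by these letters. The B3gnt5 window holds 4 E-boxes, 1 of which is CAGCTG, and the A3galt2 window holds none, while 66.2% of 32851 mouse promoter windows of the same length hold at least 1. CAGCTG, a subset of the E-box letters, is in 13% of the windows. The letters GGGCGG on either strand occur 2 times before B3gnt5, 0 times before A3galt2 and 1 time before Ggta1, and 32.7% of the windows hold them. The B3gnt5 window has 7 CG pairs and 51.2% GC, against 3 CG pairs and 46.4% GC for A3galt2 and a median of 6 CG pairs over all windows. A match is only a match of letters, and a missing one says only that the letters are not in this window.

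B3gnt5 was the member with the steepest fitted difference between regions over all mice of each genotype, though not in every single mouse. B3gnt5 (ENSMUSG00000022686) lies on the plus strand of chromosome 16 of NCBIM37 (mm9) from 19760301 to 19772846, and no other gene shares its exon bases. Levels are in TPM, that is counts per base of gene length, rescaled so that all libraries have an equal sum. In A391T cortex it was at 0.563, 0.780, 0.817 and 0.731 TPM in mice 1 to 4, from 20 to 32 counts. In A391T cerebellum of the same mice it was at 17.8, 15.8, 15.6 and 18.1 TPM, from 535 to 776 counts. Every cerebellum library lay above every cortex library, and the lowest cerebellum level was far above the highest cortex level. The share of all genes whose regions do not overlap was not counted. In A391T mice 62.8% of all genes tested differed between regions at an adjusted p under 0.05.

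A3galt2 showed the same direction from a far lower level. A3galt2 (ENSMUSG00000028794) lies on the plus strand of chromosome 4 of NCBIM37 from 128432608 to 128446542. In A391T cortex it was near the limit of these libraries, with 5, 1, 7 and 6 counts in mice 1 to 4, or 0.214, 0.0408, 0.299 and 0.208 TPM. In A391T cerebellum it had 66, 73, 74 and 63 counts, or 2.30, 3.05, 3.26 and 2.85 TPM. Here too the groups did not overlap, and the cortex values rest on few reads. Phc2, a Polycomb group gene on the same strand, ends 2483 bases before A3galt2 and was at 107 TPM in A391T cerebellum and 59.8 TPM in A391T cortex. Its part in the reads counted on A3galt2 was not tested.

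**Figure D1:**
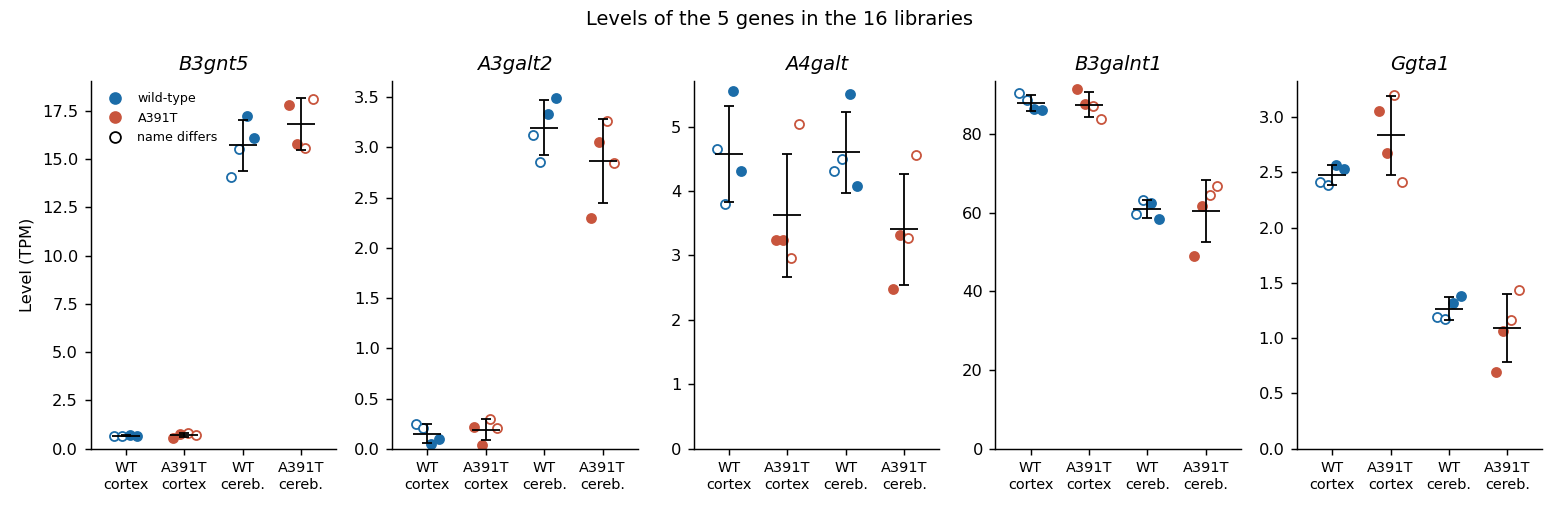
Level in TPM of each gene in the 16 libraries, 1 panel per gene with its own axis from 0 (blue, wild-type; red, A391T; open symbols, mice whose library names differ between the deposited files), with bars at the mean and SD of 4 mice. B3gnt5 and A3galt2 sit near 0 in cortex and at 14.1 to 18.1 and 2.30 to 3.49 TPM in cerebellum, A4galt overlaps between the regions, and B3galnt1 and Ggta1 are lower in cerebellum.

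In A391T mice B3gnt5 was 21.6-fold higher in cerebellum than in cortex, and A3galt2 was 13.7-fold higher by the fitted value. A3galt2 had too few counts in cortex to pass the low-count filter there, so it entered this comparison only through the cerebellum libraries, where it is high, and its fold is given as a description with no p. Ggta1 was 2.81-fold lower in cerebellum, B3galnt1 was 1.56-fold lower, and A4galt did not pass the test. Genes with an adjusted p under 0.05 that changed at least 2-fold were called, by the quasi-likelihood test of edgeR with Benjamini-Hochberg adjustment over 16005 genes. By this rule B3gnt5 was called toward cerebellum and Ggta1 toward cortex, where 24.7% of all genes tested were called, with 9.8% of all genes tested called toward cerebellum and 14.9% toward cortex. B3galnt1 passed the adjusted p alone, as did 62.8% of all genes tested. The genes were chosen with the wild-type difference known, and A391T and wild-type mice are of 1 strain. The RPKM table also names some of the A391T libraries tested here as wild-type, so they may have entered the choice. The A391T region values are therefore not independent of how the genes were chosen.

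For B3gnt5 the log2 fold change was 4.43 with a standard error of 0.14, adjusted p = 3.7e-09 in edgeR. It ranked 130 by size of fold change among the 1568 genes called toward cerebellum. For A3galt2 the fitted log2 fold change was 3.77, against a cortex level close to the limit of detection. Summed over 4 libraries, A3galt2 had 276 counts in cerebellum and 19 in cortex, a ratio of 15.3 after division by the library totals, given as a description with no interval. The same ratio for B3gnt5, from 2492 and 110 counts, was 23.8, with an exact binomial 95% interval of 19.7 to 29.1 that covers counting error only.

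Both genes were also far higher in cerebellum in the libraries whose names do not conflict. With only A391T mice 1 and 2, the log2 fold change was 4.58 for B3gnt5 (adjusted p = 1.5e-04 in edgeR) and 4.29 for A3galt2. With the RPKM table's naming the values were 4.45 and 3.85. Without the cerebellum library of A391T mouse 1 they were 4.37 and 3.84.

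The wild-type difference chose these genes. In wild-type cortex B3gnt5 was at 0.672, 0.666, 0.698 and 0.644 TPM in mice 1 to 4, and in their cerebellum at 14.1, 15.5, 17.2 and 16.1 TPM. A3galt2 had 6, 6, 1 and 2 counts in wild-type cortex and 73, 69, 79 and 79 counts in wild-type cerebellum. The log2 fold changes were 4.39 for B3gnt5 and 4.17 for A3galt2, and 4.46 and 5.35 with only the wild-type mice whose names match, mice 3 and 4, which had 1 and 2 A3galt2 counts in cortex. As in A391T mice, 24.7% of the genes tested passed both criteria in wild-type mice. The region differences of the genotypes differed by 0.06 ± 0.18 for B3gnt5 and by -0.39 ± 0.51 for A3galt2 (log2, A391T minus wild-type, ± SE from edgeR over 16 libraries), with no test because that contrast holds the wild-type difference.

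**Figure D2:**
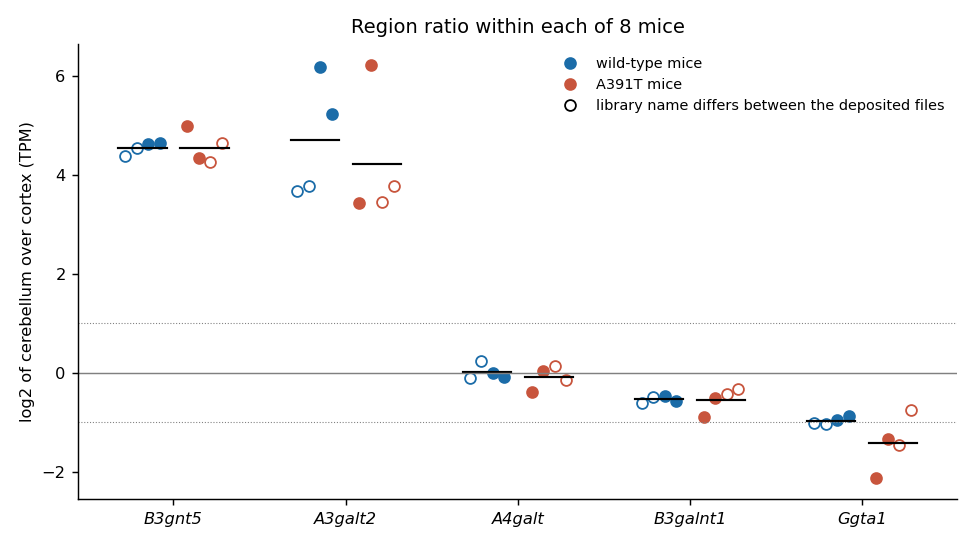
Log2 ratio of the TPM in cerebellum to that in cortex within each of 8 mice, for the 5 genes (blue, wild-type; red, A391T; open symbols, mice whose library names differ between the deposited files; black lines, means; dotted lines, 2-fold). B3gnt5 ratios lie between 4.25 and 4.98 and A3galt2 ratios between 3.43 and 6.22, where the widest rest on cortex libraries with 1 count.

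Within single mice the ratio for B3gnt5 was steady. It was lowest in A391T mouse 3 at 19.0-fold and highest in A391T mouse 1 at 31.6-fold. For A3galt2 it ran from 10.8-fold in A391T mouse 1 to 74.7-fold in A391T mouse 2, whose cortex library had 1 count.

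Choroid plexus RNA was set beside these values because it differed so much between cerebellum libraries. B3gnt5 was at 18.1 TPM in the cerebellum library of A391T mouse 4 and at 17.2 TPM in that of wild-type mouse 3, where the choroid plexus genes were lowest, and at 14.1 to 17.8 TPM in the other 6. A3galt2 was at 2.85 and 3.33 TPM in those libraries and at 2.30 to 3.49 TPM in the other 6. Both libraries lay within the range of the other 6 for A3galt2, and within or above it for B3gnt5. For A4galt both lay above the other 6, at 4.56 and 5.51 TPM. The library of A391T mouse 4 was also the highest for B3galnt1 and Ggta1, at 66.8 and 1.44 TPM. That of wild-type mouse 3 lay within the range of the other 6 for both, at 62.3 and 1.32 TPM. The part of choroid plexus RNA in these levels was not tested.

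**Figure D3:**
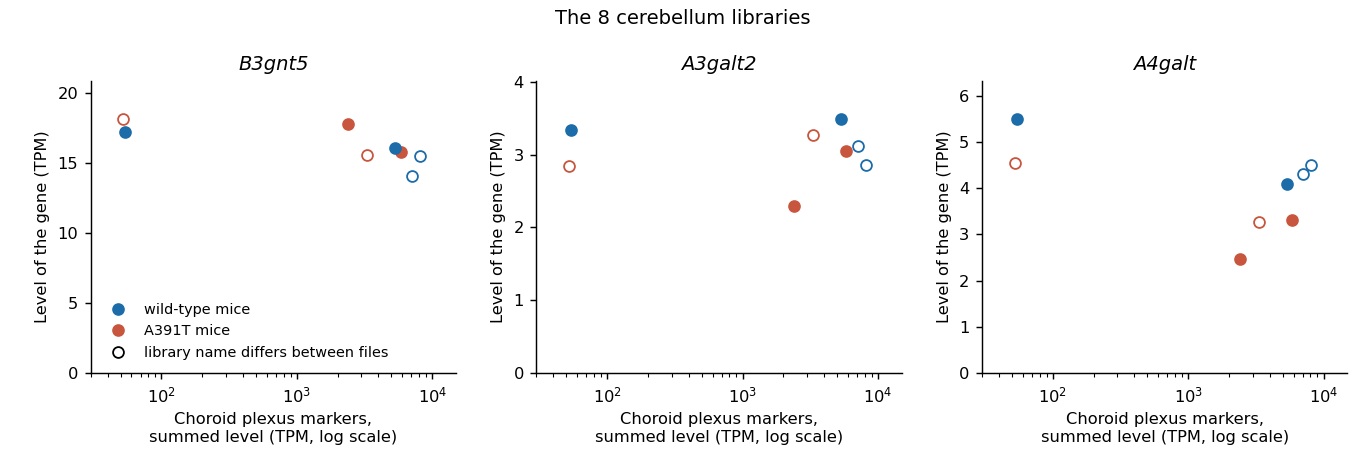
Level in TPM of B3gnt5, A3galt2 and A4galt in the 8 cerebellum libraries (vertical axes from 0) against the summed TPM of 6 choroid plexus genes on a log axis (blue, wild-type; red, A391T; open symbols, mice whose library names differ between the deposited files). The libraries of A391T mouse 4 and wild-type mouse 3, at 52.3 and 54.0 TPM of choroid plexus genes, lie within or above the range of the other 6 for B3gnt5 and A3galt2 and are the highest of the 8 for A4galt.

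The globo series genes had no such bias to cerebellum. A4galt (ENSMUSG00000047878), which makes globotriaosylceramide, is on chromosome 15, minus strand, in NCBIM37 from 83057156 to 83082204. In A391T cortex it was at 3.25, 3.24, 2.97 and 5.04 TPM in mice 1 to 4, and in A391T cerebellum at 2.47, 3.31, 3.28 and 4.56 TPM. The regions overlapped, with a log2 fold change of -0.22 and a 95% interval of -0.72 to 0.29 (adjusted p = 0.43 in edgeR). It was -0.12 without the cerebellum library of A391T mouse 1, 0.00 without the cortex library of mouse 4 and -0.37 without the cerebellum library of mouse 4. In wild-type mice the log2 fold change was -0.14, as a description.

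B3galnt1, which makes globoside, had the highest TPM of the 5 genes in both regions. B3galnt1 (ENSMUSG00000043300) is on chromosome 3, minus strand, in NCBIM37 from 69378108 to 69402783. In A391T cortex it was at 91.3, 87.6, 87.0 and 83.8 TPM in mice 1 to 4, and in A391T cerebellum at 49.1, 61.6, 64.4 and 66.8 TPM. All 4 cerebellum libraries lay below all 4 cortex libraries, in a contrast where 62.8% of all genes tested passed the adjusted p alone. The log2 fold change was -0.64 with a standard error of 0.08 (adjusted p = 4.6e-05 in edgeR), past the adjusted p and under the 2-fold criterion. Without the cerebellum library of A391T mouse 1 it was -0.58, and with library totals in place of TMM scaling -0.51. In single libraries B3galnt1 was 11.3 to 29.3 times as high as A4galt, which makes its substrate.

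Ggta1, the alpha-Gal enzyme, was lower in cerebellum. The paper reports that the Ggta1 transcript was not detected in brain. The counts used here were 111 to 153 per cortex library and 41 to 65 per cerebellum library, and the reason for this difference was not tested. Ggta1 (ENSMUSG00000035778) is a minus-strand gene of chromosome 2, from 35255699 to 35318751 in NCBIM37. In A391T cortex it was at 3.05, 2.68, 3.20 and 2.41 TPM in mice 1 to 4, and in A391T cerebellum at 0.699, 1.06, 1.17 and 1.44 TPM. No cerebellum library reached the lowest cortex library, in a contrast where 62.8% of all genes tested passed the adjusted p alone. The log2 fold change was -1.49 with a standard error of 0.18 (adjusted p = 5.2e-05 in edgeR), and -1.34 without the cerebellum library of A391T mouse 1. In wild-type mice it was -1.12, and the region differences of the genotypes differed by -0.36 ± 0.21 (log2, ± SE), with no test.

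Microglia and endothelium markers were set beside Ggta1 and A4galt. All 6 microglia genes were called lower in cerebellum of A391T mice, like Ggta1, with a summed level of 126 to 169 TPM in A391T cerebellum and 413 to 495 TPM in A391T cortex. Their part in the lower Ggta1 level was not tested. None of the 6 endothelium genes was called, with 269 to 315 TPM in A391T cerebellum and 267 to 313 TPM in A391T cortex.

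**Figure D4:**
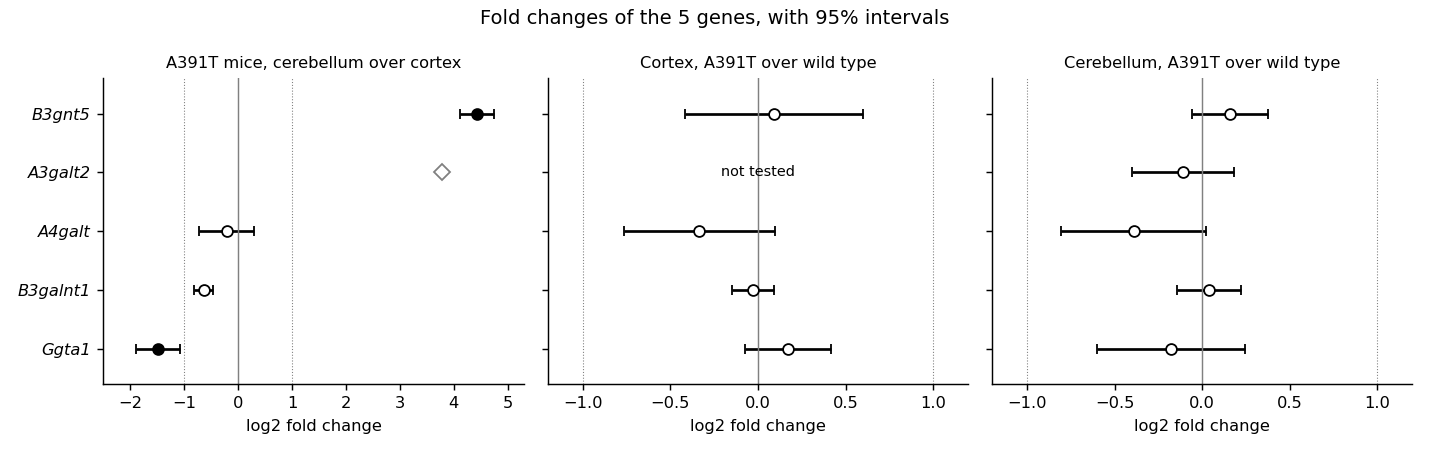
Log2 fold change of each gene with the 95% interval of edgeR's test, for A391T cerebellum over A391T cortex and for A391T over wild-type in each region (filled symbols, adjusted p under 0.05 and at least 2-fold; grey diamond, fitted value of A3galt2, shown with no interval or test because it passed the low-count filter only through cerebellum; dotted lines, 2-fold; the region panel spans a wider range than the genotype panels). B3gnt5 and Ggta1 are filled in the region panel, and no symbol is filled in the genotype panels, where all intervals cross 0.

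The genotype comparison asked whether any of these genes differed between A391T and wild-type mice. None of the 4 genes tested in cortex and none of the 5 tested in cerebellum was called, where 0.00632% of 15815 genes were called in cortex and 0.0% of 15668 genes in cerebellum. In cerebellum edgeR's test called 0 genes, with 1340 at an unadjusted p under 0.05, while DESeq2 called 9 and the exact test of edgeR called 8. A3galt2 had too few counts in cortex to enter the test. On simulated counts of 15682 genes for the cortex comparison the test called 50 of 50 genes changed 4-fold and 19 of 48 changed 2-fold. It called 1 of 50 changed 1.5-fold, and 41 of the 48 changed 2-fold passed the adjusted p alone. For cerebellum it called 48 of 50 at 4-fold, 25 of 49 at 2-fold and 0 of 50 at 1.5-fold. Each gene was drawn independently, without deviations shared within a library, so these figures do not cover such deviations.

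A4galt came closest to a genotype difference. In wild-type cortex it was at 4.65, 3.80, 5.55 and 4.30 TPM in mice 1 to 4, and in their cerebellum at 4.31, 4.50, 5.51 and 4.09 TPM. In each region 3 of 4 A391T libraries lay below all 4 wild-type libraries, and the library of mouse 4 lay within the wild-type range. The log2 fold change, A391T over wild-type, was -0.33 in cortex with a 95% interval of -0.77 to 0.10, adjusted p = 1.00 in edgeR (unadjusted 0.12). In cerebellum it was -0.39 with an interval of -0.80 to 0.02, adjusted p = 0.53 in edgeR (unadjusted 0.060). With only the mice whose names match, it was -0.63 in cortex and -0.62 in cerebellum, also not past the threshold, with adjusted p = 0.91 and 0.47 in edgeR. With the RPKM table's naming it was -0.27 and -0.20. Leaving out the library of A391T mouse 4 gave -0.55 in either region, and leaving out the cerebellum library of A391T mouse 1 gave -0.30 in cerebellum.

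For the other genes the genotype intervals were as follows. B3gnt5 was at 0.09 in cortex (-0.42 to 0.60) and 0.16 in cerebellum (-0.06 to 0.38) on the log2 scale. B3galnt1 was at -0.03 in cortex (-0.15 to 0.09) and 0.04 in cerebellum (-0.14 to 0.22). Ggta1 was at 0.17 in cortex (-0.07 to 0.42) and -0.18 in cerebellum (-0.60 to 0.25), and A3galt2 was at -0.11 in cerebellum (-0.40 to 0.18). Without the cerebellum library of A391T mouse 1 the cerebellum values were 0.08 for B3gnt5, 0.09 for B3galnt1, -0.04 for Ggta1 and -0.05 for A3galt2. For Ggta1 in cerebellum the value was -0.32 without the library of A391T mouse 4, -0.31 with the RPKM table's naming and -0.51 with only the mice whose names match. The B3galnt1 intervals are the narrowest, from 700 to 1349 counts per library. The signs of the B3gnt5, B3galnt1 and Ggta1 values in cortex, and of the B3gnt5 and B3galnt1 values in cerebellum, turned with the RPKM table's naming.

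The order of the 5 genes by level differed between the regions. In cortex, over 8 mice, it was B3galnt1 at 87.7 ± 2.41 TPM (SD), A4galt at 4.10 ± 0.940 TPM, Ggta1 at 2.66 ± 0.310 TPM, B3gnt5 at 0.696 ± 0.0800 TPM and A3galt2 at 0.169 ± 0.0964 TPM. In cerebellum it was B3galnt1 at 60.7 ± 5.38 TPM, B3gnt5 at 16.3 ± 1.36 TPM, A4galt at 4.00 ± 0.946 TPM, A3galt2 at 3.03 ± 0.372 TPM and Ggta1 at 1.18 ± 0.231 TPM. B3gnt5 stood below Ggta1 in cortex and above A4galt in cerebellum.

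Some neighbours in this order overlapped between mice, although most were ordered alike within a mouse. A4galt and Ggta1 overlapped in cortex, where A4galt was the higher in 7 of 8 mice. A4galt and A3galt2 overlapped in cerebellum, where A4galt was the higher in 8 of 8 mice and the ratio within a mouse ran from 1.00 to 1.65. The other neighbours did not overlap in any library. The order depends on the gene lengths used. That of Ggta1 is 7316 bases in the deposited table and 4709 exon bases in the NCBIM37 annotation. In CPM, with no division by length, Ggta1 stood above A4galt in cortex in all 8 mice. In cerebellum the CPM of B3galnt1 was above that of B3gnt5 in 7 of 8 mice, with a mean ratio of 1.30 against 3.73 in TPM (geometric means). The CPM of A3galt2 was above that of A4galt in 7 of 8 mice, and the CPM of A4galt was above that of Ggta1 in 4 of 8.

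Against the ganglioside branch, all members that act on lactosylceramide were low. St3gal5, which makes the ganglioside GM3 from lactosylceramide, was at 221 ± 7.57 TPM in A391T cortex and 215 ± 11.6 TPM in A391T cerebellum (SD, n = 4). It was 261 to 411 times as high as B3gnt5 in A391T cortex libraries and 11.9 to 13.3 times as high in A391T cerebellum libraries. Against A4galt the St3gal5 ratio was 43.5 to 71.8 in A391T cortex and 47.3 to 93.5 in A391T cerebellum. B4galnt1, which adds N-acetylgalactosamine to start complex gangliosides, was at 156 ± 7.45 and 92.0 ± 5.04 TPM, so it was 182 to 266 times B3gnt5 in A391T cortex and 5.24 to 5.66 times B3gnt5 in A391T cerebellum.

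The other genes that make these lipids were called between the regions at a share near that of all genes. Of 26 further glycosphingolipid synthesis genes, 24 had enough counts, and 1 was called higher and 4 lower in A391T cerebellum, or 20.8% against 24.7% of all genes tested. Their median log2 fold change was 0.02, beside the 0.03 of all genes tested. No gene of these lists was called in a genotype comparison in either region.

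None of the 3 genes that supply lactosylceramide was called, where 24.7% of all genes were, and their median log2 fold change was -0.08 against 0.03 over all genes tested. B4galt6, a lactosylceramide synthase named after its values were seen, passed the adjusted p but not 2-fold, at -0.27 (adjusted p = 0.0020 in edgeR). Ugcg, which adds the glucose to ceramide, had the smallest difference, -0.08 with a standard error of 0.08 (adjusted p = 0.42 in edgeR). St3gal5, of the other branches, was at -0.14 with a standard error of 0.08 (adjusted p = 0.15 in edgeR), and B4galnt1 passed the adjusted p but not 2-fold, at -0.86.

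The enzymes that elongate and cap the neolacto chain moved in both directions. Of 19 listed genes 17 were tested, with 1 called higher and 4 called lower in A391T cerebellum and a median log2 fold change of 0.03, as over all genes. Over all genes tested 9.8% were called higher and 14.9% lower, so calls leaned toward cortex there too. Gcnt2, which branches the chain into the I antigen, fell by 2.91 on the log2 scale (adjusted p = 6.5e-09 in edgeR), from 21.4 TPM in cortex to 3.06 TPM in cerebellum. B3gat1, a glucuronosyltransferase of the HNK-1 epitope, fell by 1.99 on the log2 scale, from 211 to 57.5 TPM (adjusted p = 2.3e-07 in edgeR). B4galt2, a galactosyltransferase that can lengthen such chains, fell by 1.66 on the log2 scale, from 97.8 to 33.2 TPM. By the adjusted p alone 11 of the 17 passed, where 62.8% of all genes tested did. Of those under 2-fold, B3galt1 was lower in cerebellum, at -0.98. St3gal4, B3gat2, St3gal6, Chst10 and St3gal3 were higher, at 0.68, 0.63, 0.62, 0.41 and 0.26 on the log2 scale.

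The remaining calls in this list were B3galt2 and Fut2. B3galt2, a galactosyltransferase of the lacto type of chain, fell by 1.56 on the log2 scale, from 32.3 to 11.9 TPM. Fut2, a fucosyltransferase that makes the H antigen, rose by 1.95 on the log2 scale (adjusted p = 4.4e-06 in edgeR), from 0.774 to 3.24 TPM. B4galt3, another galactosyltransferase, had the smallest difference, 0.00. Fut1 and Fut4 had too few counts to be tested.

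Of 5 listed genes for the extension of globo lipids 4 were tested, and Fut2, which is also in the neolacto list, was the 1 called, where 24.7% of all genes were, with a median log2 fold change of 0.30 over the list. Gbgt1, which makes the Forssman glycolipid from globoside, had the smallest difference, 0.04 with a standard error of 0.27, at 2.04 TPM in A391T cortex and 2.19 TPM in A391T cerebellum.

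**Figure D5:**
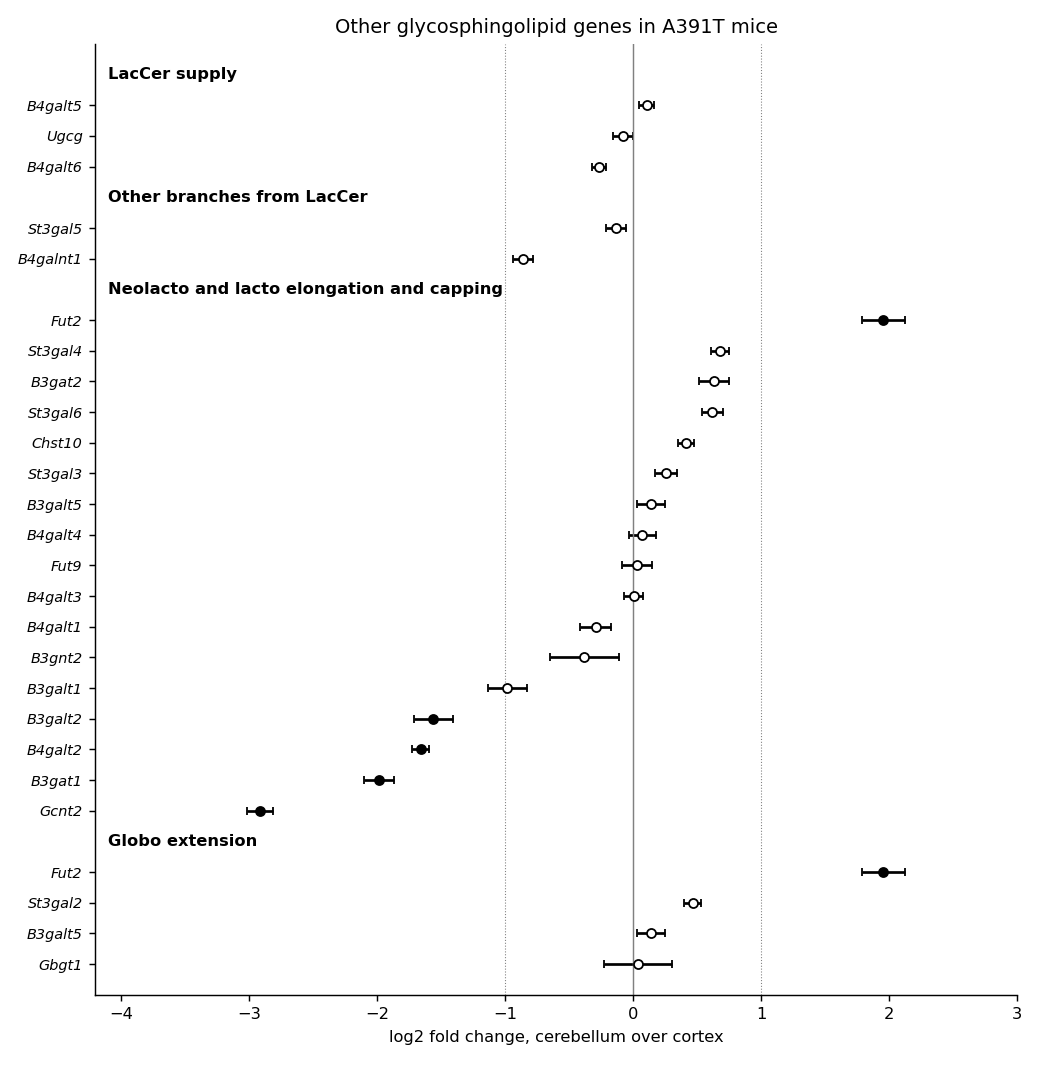
Log2 fold change, cerebellum over cortex in A391T mice, of the other glycosphingolipid genes tested, by list, with bars of 1 standard error (filled symbols, adjusted p under 0.05 and at least 2-fold; dotted lines, 2-fold). Gcnt2, B3gat1, B4galt2 and B3galt2 are filled to the left and Fut2, which stands in 2 lists, to the right.

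The genes most like each member over the libraries were found by the Pearson correlation of log2 CPM, as a description. The points are 16 libraries from 8 mice that share region and genotype, so a correlation over all of them follows the regions. For B3gnt5 the highest were Pcsk6, Skor2 and Homer3, each at 0.999, and Homer3 was at 7.11 TPM in A391T cortex and 311 TPM in A391T cerebellum. For A3galt2 they were Ss18, Marveld2 and Aqp6, at 0.985, 0.984 and 0.982, and Aqp6 was at 0.434 and 91.9 TPM in the same groups.

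The genes lower in cerebellum had partners of the same pattern. For B3galnt1 they were Gucy1a3, Thy1 and Rap1gds1, at 0.993, 0.992 and 0.992. For Ggta1 they were Rapgef4, Pcdh18 and Egr1, each at 0.984. For A4galt, which had no region pattern, they were Gpr35, Srxn1 and Tgm2, at 0.882, 0.819 and 0.807.

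After the mean of each group was subtracted, other genes came first. They were Galnt2, Efcab2 and Fam98c for B3gnt5 (0.861, 0.820 and 0.798), Ttk, Phf6 and Gm15591 for A3galt2 (0.911, 0.792 and 0.784), and Enox1, 5430417L22Rik and Gm12908 for A4galt (0.893, 0.818 and 0.816). For B3galnt1 they were Ufsp2, Uqcrc2 and Itfg1 (0.921, 0.919 and 0.905), and for Ggta1 Jam2, Hnrnpa3 and Npat (0.929, 0.928 and 0.904). None of these was among the 3 highest over the 16 libraries. B3gnt5 and A3galt2, which had a correlation of 0.968 over the 16 libraries, had -0.17 after the group means were subtracted, while B3galnt1 and Ggta1 had 0.661 against 0.964. That value rests on the cerebellum library of A391T mouse 1, without which it was 0.225, a setting chosen after seeing the data. The correlation of B3gnt5 with A3galt2 was -0.13 without that library, and those of the 5 genes with the 15 partners named here were 0.756 to 0.928. The partners were picked for high values over these same libraries, so their staying high is no check. Galnt2 and Ttk also had low levels, with group means of 0.199 to 0.500 and 0.435 to 0.606 TPM.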

How the data were processed

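PolyA-selected directional libraries were sequenced by the authors as reads of 50 bases, mapped with STAR to mm9 and counted per Ensembl gene with HTSeq. The deposited values used here are whole-number counts per gene and library, without normalization and without regard to strand. Reads on no gene (10.2% to 13.2% of entries), ambiguous reads (2.20% to 2.75%) and reads not uniquely aligned (8.41% to 12.1%) were left out. The deposited RPKM table, in which the authors divided counts by depth and gene length, was used for gene names, gene lengths and library names. Each of its columns, multiplied by gene length, was proportional to the counts of 1 library, and 8 of 16 carry another library's name. 0 columns of other samples were present.

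Counts were tested with edgeR 4.0.16 (filterByExpr, TMM, quasi-likelihood test) in R 4.3.3, separately for each pair of groups, and p-values were adjusted by Benjamini-Hochberg over all tested genes. The criteria were those of the study, an adjusted p under 0.05 and a change of at least 1 in log2. Intervals of 95% come from the standard error and the p of the same test. TPM was computed from the counts and the table's gene lengths. The test was checked on simulated data with each gene drawn independently. In the A391T region comparison it called 50 of 50 genes changed 4-fold, 24 of 49 changed 2-fold and 1 of 50 changed 1.5-fold. There were 4 false calls among 15836 genes. The depth of 20813432 to 30497206 counts per library leaves values resting on fewer than 10 counts, as for A3galt2 in cortex, imprecise.

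Alternatives were DESeq2 1.42.0, the exact test of edgeR, other scalings and filters, all libraries in 1 model, mouse as a replicate block, other library names, and each library left out. Both regions of a mouse come from the same animal by the numbers in the labels. The correlation of their deviations from the group means was -0.099 to 0.119 across genes over the 8 mice. For regions of different mice of the same genotype it was -0.167 to 0.152, so the pairing rests on the labels alone. The members, gene lists and tests were chosen with earlier results of these data known. The genes named are the members, every listed pathway gene called in A391T mice or between genotypes, the least changed gene of each list, and the 3 genes most correlated with each member. The neolacto genes that passed the adjusted p alone were named after their values were seen. The list of genes for breakdown of these lipids is not reported here. St3gal5 and B4galnt1 are named also for their place at the branch point. The order of levels is given with no p, since wild-type levels entered the choice. Promoters are from RefSeq, where all 5 genes had an entry.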

Additional observations from a re-analysis of the deposited data

Results flagged for a closer look

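The level of A4galt in the cortex library of A391T mouse 4, 5.04 TPM, lay far from the other 3 A391T cortex libraries, which ran from 2.97 to 3.25 TPM, with a gap of 0.864 of the group's range. It was the only such value among 20 groups of 4 libraries examined, where chance gives about 1 in 20. The same mouse also had the highest A4galt level of the A391T cerebellum libraries, 4.56 TPM. Its libraries are among those with another name in the RPKM table, where they belong to wild-type mouse 2.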

How the results depend on the processing

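The calls of B3gnt5 and Ggta1 in A391T mice, and the absence of a call for A4galt, held under all 20 alternatives. The log2 fold changes lay between 4.33 and 4.58 for B3gnt5, 3.44 and 4.29 for A3galt2, which is given with no test, -1.78 and -1.34 for Ggta1, and -0.37 and 0.00 for A4galt. B3galnt1 (-0.64) was called only when the fold criterion was dropped. With mouse as a replicate block B3gnt5 was at 4.43, Ggta1 at -1.50 and A3galt2 at 3.78, and the block changed no call. With the names of the RPKM table and the block, a setting chosen after seeing the data, B3gnt5 was at 4.44 and Ggta1 at -1.46. Library totals moved the median log2 fold change of all genes from 0.03 to 0.16.

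Without the fold criterion 10056 genes passed in A391T mice and 10875 in wild-type mice. For the genotypes in cortex, 1 gene was called, against 2 without the fold criterion, without the low-count filter, with DESeq2 and with the exact test, and 0 with RLE size factors, library totals, the CPM filter, 1 model or the table's names; leaving out a library gave 0 to 2. In cerebellum 0 were called, against 1 without the filter, 9 with DESeq2, 8 with the exact test and 2 in 1 model; leaving out a library gave 0 to 1. None of these was a member.

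Signs turned for small genotype values. Under the table's names the log2 fold changes in cortex were -0.12 for B3gnt5, 0.0513 for B3galnt1 and -0.0332 for Ggta1, and in cerebellum -0.0147 for B3gnt5 and -0.0515 for B3galnt1. With only matching mice they were -0.0237 for B3gnt5 and 0.0238 for B3galnt1 in cortex and -0.0125 for B3galnt1 in cerebellum. The cause was not tested. No paired fit exists between genotypes, which share no mouse. A count of 1 to 7 per cortex library limits A3galt2.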

Other observations

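A4galt was the gene among the 5 whose levels in both regions of a mouse went together, a pattern noticed after its values were seen. Over the 8 mice the Pearson correlation of its TPM in cortex with that in cerebellum was 0.877 and Spearman's rho was 0.857, and without the 2 mice farthest from the median in cortex Pearson's r was 0.788. Wild-type mouse 3 was highest in both regions, at 5.55 and 5.51 TPM. For the other 4 genes Pearson's r was -0.74 to -0.23, but without the 2 farthest mice it was 0.33 for B3gnt5, -0.22 for A3galt2, -0.08 for B3galnt1 and -0.34 for Ggta1. These are given as descriptions over mice of both genotypes. The endothelium genes, a cell type in which A4galt is known to act, summed to 345 and 344 TPM in the cortex and cerebellum of wild-type mouse 3 and to 275 and 279 TPM in those of A391T mouse 4. Their sums were highest in wild-type mouse 4, at 432 and 352 TPM, where A4galt was at 4.30 and 4.09 TPM. The part of the endothelium genes in the A4galt levels was not tested.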
